A study of Phanerodontia chrysosporium with 8 samples.

Results

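The gene models described here had about the same mean messenger RNA level in vegetative mycelium and young fruiting body of the white-rot fungus Phanerodontia chrysosporium, strain RP-78, and a lower median in the fruiting body. They were chosen on the deposited log2 RPKM values (reads divided by the length of the model and the scaled depth of the library) by a rule of 3 conditions. The mean log2 RPKM of the young fruiting body had to lie within 1 of that of the mycelium, which is a factor of 2, and had to reach at least 2, which is 4.0 RPKM. The median of the fruiting body libraries had to lie at least 1 below the young fruiting body mean. The rule held for 79 of 12746 models (0.620%), or 1.04% of the 7605 models that met the first 2 conditions, which are called steady models here. The mirrored rule, a rise of at least 1, held for 97. Because the rule used all 8 libraries, the levels and falls of the 79 members are a description, and no test of them is offered as support.

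Polyadenylated RNA was sequenced from 3 vegetative mycelium, 2 young fruiting body and 3 fruiting body libraries, all of strain RP-78 with no mutation or added agent named. Cultures grew on cellophane over malt, peptone and yeast agar with glucose for 7 days at 37 °C in darkness and then stood in a humid chamber at 25 °C in weak light. The young fruiting body was a compact mat of initials set off from the mycelium around it, and the fruiting body was taken when spores had begun to appear on the dish lids. The labels do not say at which point of this course the mycelium was taken, and they call the libraries biological replicates without naming separate cultures.

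P. chrysosporium is a basidiomycete that breaks down lignin in wood. Its fruiting body is a thin crust pressed against the substrate, without cap or stem. Basidia, the cells in which nuclei fuse and meiosis takes place, line the exposed surface and shoot off their spores, so a body that releases spores holds hyphae, basidia and spores at several points of that course. In bulk RNA, fewer cells of a type and less RNA per cell cannot be told apart. The models are known in the files by JGI protein IDs alone, with no gene name or product beside them, so no role is given to any model below, and the stage labels could not be checked against marker genes.

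Unique gene reads came to 16144543 to 35837246 per library. The fruiting body libraries were unequal. Over all models, which are not independent replicates, log2 CPM of replicate 3 correlated at 0.898 and 0.918 with replicates 1 and 2, and these at 0.983 between themselves. With mycelium, replicate 3 correlated at 0.863 to 0.871 and replicates 1 and 2 at 0.788 to 0.836. Replicates 1 and 3 also came from a second flowcell, and replicate 2 from the one used for both earlier stages. Each fruiting body library is therefore given separately.

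Before the fall the members lay at ordinary levels. Their median log2 RPKM was 4.37, 4.43 and 4.54 in mycelium replicates 1, 2 and 3 and 4.46 and 4.35 in the young fruiting body libraries, while the steady models had medians of 4.84 to 4.99 in these libraries. In fruiting body replicates 1, 2 and 3 the medians of the members were 3.06, 2.94 and 3.26, where the steady models stayed at 5.04, 5.01 and 4.93. The young fruiting body mean of a member ranged from 2.04 to 9.06 on the log2 scale. No member was lost from any library, since the lowest count of any member was 7 unique reads, and the median member had 150.0 to 230.0 reads in the fruiting bodies. Together the members took 0.386, 0.377 and 0.478% of unique reads in the mycelium libraries and 0.450 and 0.511% in the young fruiting bodies. In the fruiting bodies, in order of replicate, the share was 0.173, 0.233 and 0.173%, so every fruiting body library lay below every other library.

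**Figure D1:**
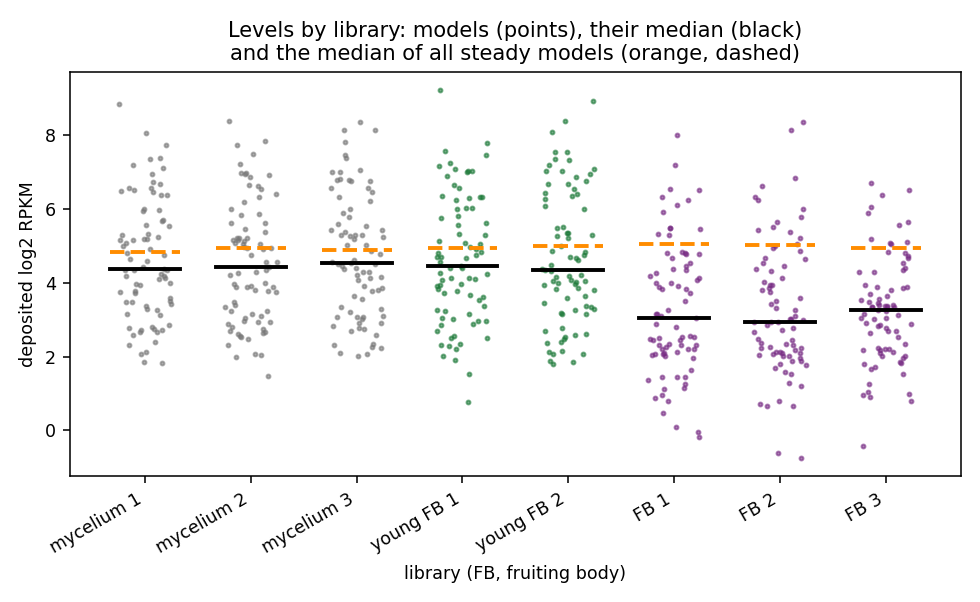
Deposited log2 RPKM of the 79 members (points) in each of the 8 libraries, with the median of the members (black line) and of the 7605 steady models (orange dashed line). The median of the members lies between 4.35 and 4.54 in mycelium and young fruiting bodies and between 2.94 and 3.26 in the fruiting bodies, while the steady models stay between 4.84 and 5.04.

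The falls were mostly small. The median fall from young fruiting body to fruiting body was 1.31 on the log2 scale, the middle quartiles spanned -1.63 to -1.07, and the largest was -3.22. A fall of at least 1.5 was seen in 26 members and one of at least 2 in 8, while 35 lay within 0.25 of the limit of the rule. Model 2967872 (588 bp) was the member nearest to the limit, with 48.7 and 45.2 RPKM in young fruiting bodies and 23.4, 23.2 and 33.1 after them. Model 2928674 (1352 bp) was the nearest model outside it, with 44.8 and 38.8 RPKM and then 20.9, 19.9 and 23.7. The second model outside, 2990305 (1218 bp), went from 16.7 and 14.8 RPKM to 7.16, 7.91 and 10.4. These 3 models fell by like amounts from young fruiting body to fruiting body, and the limit separates them by hundredths of a log2 unit. Their courses from mycelium differed. In order of replicate, mycelium had 51.2, 43.9 and 32.6 RPKM of model 2967872. It had 52.7, 56.6 and 66.4 of model 2928674, above its young fruiting bodies, and 10.6, 8.91 and 14.4 of model 2990305, below its young fruiting bodies.

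Against mycelium, the fruiting body level was lower as well. The median fruiting body library lay below the mycelium mean in all 79 members, which the rule fixes, by a median of 1.41 on the log2 scale. It lay at least 1 below in 55 members and less than 1 below in the remaining members. Between mycelium and young fruiting body, 44 members were somewhat higher in young fruiting bodies and 35 lower, and 48 were within 0.5 of the mycelium mean. The median of that difference was 0.06 for the members and 0.06 for all steady models. The rule keeps this difference within 1 in both sets, so a larger peak in the young fruiting body could not appear. Within that bound the members had no common direction. The edgeR quasi-likelihood test over 12510 models called 38 members lower in fruiting bodies than in mycelium (Benjamini-Hochberg adjusted p below 0.05), where 13.4% of all models were called lower. Since the rule places the fruiting body below a stage that is near mycelium, nothing is read from that share. With the flowcell as a covariate, where the fruiting body rests on replicate 2, 10 members and 411 models were called lower. Without mycelium replicate 3 the number of members called was 25 and that of all models 1052, and all models called lower numbered 1022 without fruiting body replicate 2 and 3079 without fruiting body replicate 3.

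In 24 of the 79 members every fruiting body library lay at least 1 below the young fruiting body mean. In 25 only replicates 1 and 2 did, in 18 only replicates 2 and 3, and in 12 only replicates 1 and 3. Taken singly, 61 members were at least 1 below in replicate 1, 67 in replicate 2 and 54 in replicate 3. Over all models the shares were 7.13%, 3.50% and 9.12%. The rule needs a low median, which fixes at least 2 low libraries in each member, so nothing is read from these counts. Replicate 2 alone came from the flowcell of the young fruiting bodies. Replicate 3 was above the young fruiting body mean in 10 members, replicate 2 in 2 and replicate 1 in 0. In the 25 members with replicates 1 and 2 low, the median difference from young fruiting bodies was -1.37 and -1.21 in those libraries and -0.27 in replicate 3. In the 18 with replicates 2 and 3 low it was -1.33 and -1.77 there and -0.55 in replicate 1. In the 12 with replicates 1 and 3 low, the libraries of the other flowcell, it was -1.16 and -1.58 there and -0.46 in replicate 2. In the 24 it was -1.68, -1.72 and -1.76 in replicates 1, 2 and 3. Over the members, the differences from young fruiting bodies correlated at 0.41 (replicates 1 and 2), 0.21 (2 and 3) and 0.00 (1 and 3). All 3 differences share the same young fruiting body mean and, in the members, the limit of the rule. Over the steady models the correlations were 0.65, 0.28 and 0.03 in the same order. The part of the flowcell, or of replicate 3 as a library that stands apart, in these patterns was not tested.

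**Figure D2:**
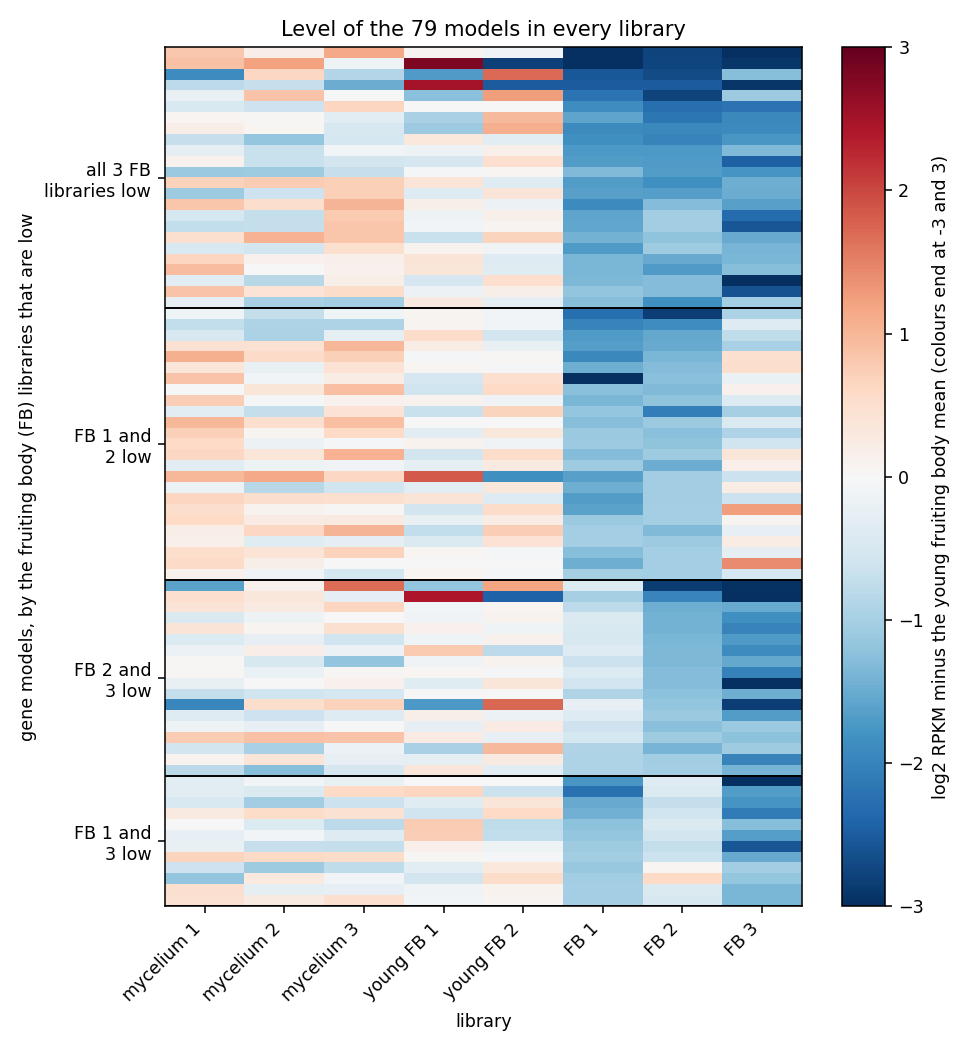
Each row is 1 of the 79 members and each column 1 library; colour gives log2 RPKM minus the mean of the young fruiting body libraries. Rows are grouped by which fruiting body libraries lie at least 1 below that mean, with 24, 25, 18 and 12 members from top to bottom, and replicate 3 is the pale column in the second group.

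A lack of overlap between stages held in part of the members, while the fall of the median is fixed by the rule. Every fruiting body library lay below both young fruiting body libraries in 51 of 79 members, where 9.81% of all 12746 models showed this order. Every fruiting body library lay below all mycelium and young fruiting body libraries in 42 members, against 4.28% of all models. The rule favours such an order, so nothing is read from these shares. Counted against the young fruiting bodies alone, the order was present in 20 of the 24 members with all fruiting body libraries low. It was present in 12 of the 25 in which replicate 3 was not low. Where replicate 1 was not low it held in 13 of 18, and where replicate 2 was not low in 6 of 12.

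In 7 members the lowest mycelium or young fruiting body library was at least 2-fold above the highest fruiting body library, as in 9 of all 12746 models (0.0706%). These models were singled out after their values had been seen, so they are described without a test. Model 2909539 (951 bp) had 46.9, 30.8 and 58.9 RPKM in mycelium, 28.4 and 25.4 in young fruiting bodies and 1.38, 3.90 and 2.88 in the fruiting bodies, given here and below in order of replicate. It had the largest fall of all members, 9.33-fold from the young fruiting body mean to the median fruiting body library, and its groups are separated by a factor of 6.52. Model 3025621 (981 bp) had 93.9, 98.4 and 95.6 RPKM in mycelium, 75.9 and 44.7 in young fruiting bodies and 18.3, 16.2 and 21.0 in fruiting bodies. Its mycelium libraries lie close together (96.0 ± 2.27, SD, n = 3), as do its fruiting body libraries (18.5 ± 2.41, SD, n = 3), while its young fruiting body libraries lie between them and apart from each other.

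Model 3024092 (2022 bp) went from 37.6, 30.2 and 42.8 RPKM in mycelium through 23.6 and 18.6 in young fruiting bodies to 5.62, 8.51 and 6.80 in fruiting bodies, so it stepped down at each stage without overlap. Model 2984123 (1306 bp) had the highest level of the 7, with 164, 121 and 134 RPKM in mycelium, 81.3 and 102 in young fruiting bodies and 40.0, 37.2 and 14.8 in fruiting bodies. Its replicate 3 is the lowest fruiting body library, the opposite of its place in the 25 members in which replicate 3 was not low. Model 2988096 (1648 bp) had 61.6, 35.6 and 38.8 RPKM, then 39.6 and 80.8, and then 17.6, 17.3 and 10.3. Its mycelium and young fruiting body libraries overlap, and both lie above the fruiting bodies. Model 3026925 (702 bp) had 15.3, 13.6 and 32.6 RPKM in mycelium, a close pair of 21.2 and 20.8 in young fruiting bodies and 5.80, 4.40 and 4.52 in fruiting bodies. Model 2980783 (831 bp) was the lowest of the 7, with 7.01, 4.94 and 5.02 RPKM, then 5.86 and 3.47, and then 1.73, 1.57 and 1.73.

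**Figure D3:**
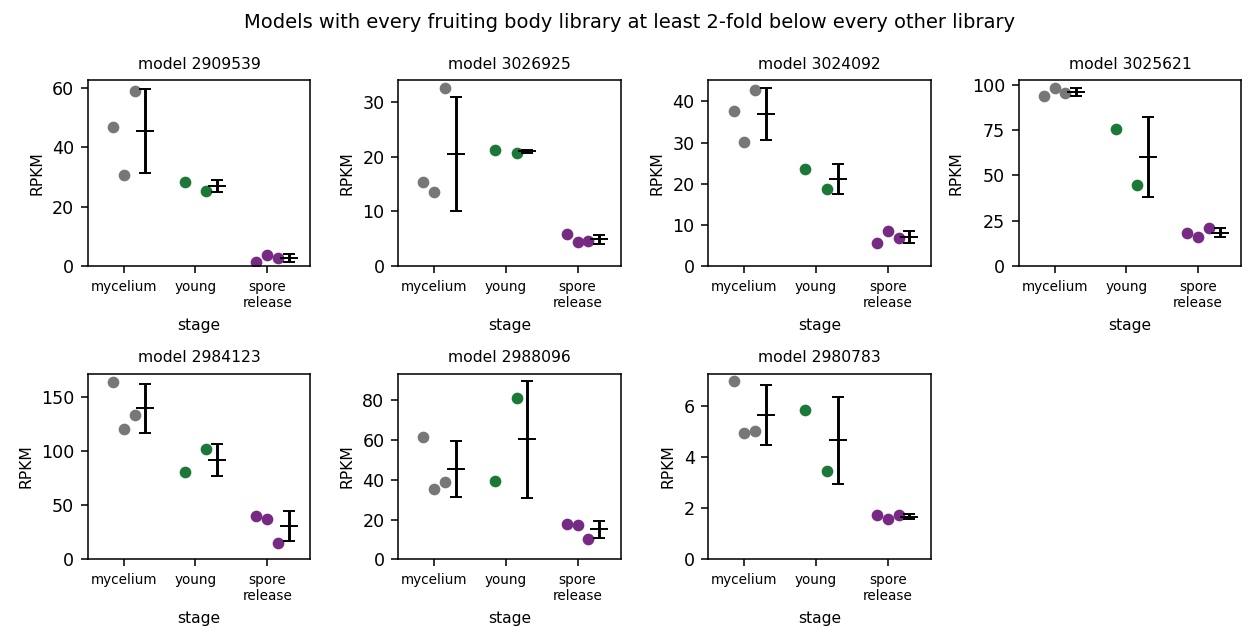
RPKM (linear axis from 0) of the 7 members whose fruiting body libraries all lie at least 2-fold below every other library. Points are libraries, in order of replicate number, and the bar beside them is the mean with its SD (n = 3, 2 and 3); in model 2909539 the fruiting bodies lie at 1.38 to 3.90 RPKM and the other libraries at 25.4 or more.

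The young fruiting body libraries often disagreed among the members. They differed by more than 1 on the log2 scale in 27 of 79 members (34.2%) and in 3.51% of the steady models. The median absolute difference was 0.62 in members and 0.26 in steady models. The rule used the mean of these libraries, so 1 high library can bring a model in, and nothing is read from that contrast. Of the 27, replicate 1 was the higher library in 9 and replicate 2 in 18. In 24 of the 27, the lower young fruiting body library was less than 1 above the fruiting body median, and in 20 it lay below the highest fruiting body library. Both young fruiting body libraries were at least 1 above the fruiting body median in 36 of the 79 members. The description as a fall after the young stage therefore holds in both young libraries for a minority of the members. In the other 43, at least 1 young fruiting body library was already less than 2-fold above the fruiting body.

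Of the 4 largest falls in which every fruiting body library was low, 3 had such unequal young fruiting bodies. Model 3028028 (1761 bp) had 46.4, 57.7 and 22.7 RPKM in mycelium, 176 and 3.58 in young fruiting bodies and 3.11, 3.71 and 3.31 in fruiting bodies. Young fruiting body replicate 2 thus lay among the fruiting bodies, at 145 unique reads against 8489 in replicate 1. Model 3039275 (2161 bp) had 13.7, 14.7 and 8.48 RPKM, then 134 and 4.2, and then 4.21, 4.23 and 3.15, with the same library high. Model 2975111 (1870 bp) had the opposite order, with 8.22 RPKM in young fruiting body replicate 1 and 87.0 in replicate 2. It stood at 7.29, 41.3 and 14.6 RPKM in mycelium and at 4.57, 4.15 and 11.0 in fruiting bodies, so its mycelium libraries were unequal as well. For these models the mean of the young fruiting bodies is a level that neither library shows.

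**Figure D4:**
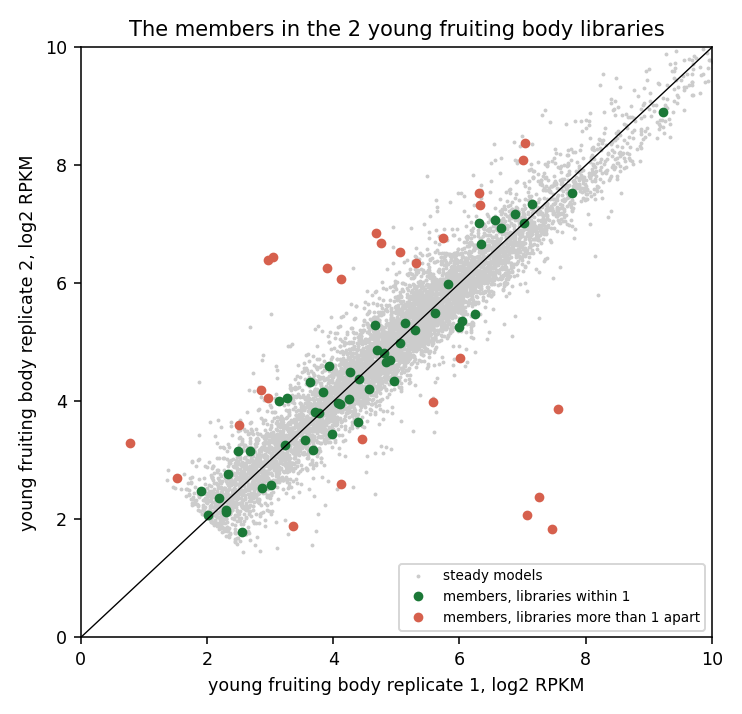
Log2 RPKM in young fruiting body replicate 1 (x) and replicate 2 (y) for steady models (grey), 52 members with the libraries within 1 of each other (green) and 27 members with the libraries more than 1 apart (red); axes end at 10, above which only steady models lie. The line marks equal levels, and the red points far from it include models 3028028 and 3039275, high in replicate 1, and 2975111, high in replicate 2.

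The 4 most abundant members differed in how far each fruiting body library fell. Model 2907039 (663 bp), the highest in young fruiting bodies, had 456, 334 and 326 RPKM in mycelium, 595 and 482 in young fruiting bodies and 258, 324 and 91.0 in fruiting bodies. All its fruiting body libraries lie below all others, but replicate 2 (324) only barely below mycelium replicate 3 (326). Fruiting body replicate 3 lies far below fruiting body replicates 1 and 2. Model 3028352 (627 bp) had 166, 126 and 284 RPKM, then 131 and 331, and then 93.3, 49.7 and 105, again without overlap, although the young fruiting bodies differ more than 2-fold. Model 3025352 (810 bp) had 264, 213 and 281 RPKM, then 220 and 185, and then 146, 75.5 and 50.0, with the weakest fall in replicate 1. Model 3035980 (2560 bp) had 82.4, 229 and 178 RPKM, then 128 and 272, and then 91.4, 282 and 83.5. Its fruiting body replicate 2 was the highest of all 8 libraries, and its log2 fold change changed sign when young fruiting body replicate 2 was left out (from -0.40 to 0.21). Model 3035980 gave 17426 of the 57348 reads of all members in fruiting body replicate 2, so it weighs on the read share of that library.

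The remaining models chosen to show each pair of low libraries differed in how far the other library stayed up. Model 2346085 (1019 bp) had 139, 72.4 and 88.4 RPKM in mycelium, 53.5 and 108 in young fruiting bodies and 9.52, 32.1 and 66.2 in fruiting bodies, so replicate 3 lay within the range of the young fruiting bodies. Model 2914535 (591 bp) had 123, 149 and 95.2 RPKM, then 94.4 and 135, and then 59.8, 55.1 and 28.2. All its fruiting body libraries are below the others, and replicate 1 misses the limit narrowly. Model 2901476 (2037 bp) had 20.4, 15.7 and 13.6 RPKM, then 13.8 and 13.9, and then 5.0, 6.86 and 36.7. Its replicate 3 was the highest of the 8 libraries, so the libraries of the stage have no common direction, and its fitted log2 fold change was 0.23 with all libraries and -1.22 without replicate 3 (edgeR).

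The rule set no condition on length or shared reads, although both enter the RPKM values it used. The members had a median length of 1083 bp, against 1330 bp for the steady models. They made up 1.58% of steady models of 500 to 1000 bp, 1.07% of those of 1000 to 2000 bp, 0.693% of those of 2000 to 3000 bp, 0.464% of longer ones, and 0.371% of those under 500 bp. By level, they made up 1.45% of steady models with a young fruiting body log2 RPKM of 2 to 3 and 0.762% of those at 6 or above. More than 1% of gene reads were not unique in 5 members (6.33%), as in 6.32% of the steady models. The highest shares were 26.0% in model 1222212 (2739 bp), which went from 4.91 and 4.47 RPKM in young fruiting bodies to 1.93, 2.32 and 3.89, and 19.7% in model 2985403 (1255 bp), which went from 25.2 and 39.4 to 14.2, 33.1 and 15.3. The levels of these 2 models include reads that near-identical sequences share and are uncertain to that extent. The longest member was model 2934472 (5704 bp), with 6.29, 6.47 and 8.44 RPKM in mycelium, 13.1 and 14.2 in young fruiting bodies and 5.44, 4.25 and 4.01 in fruiting bodies, a profile that is high in the young stage and low on both sides of it. The shortest was model 2867665 (174 bp), with 102, 122 and 111 RPKM, then 130 and 129, and then 38.9, 98.7 and 10.1, in which replicate 3 rests on 32 unique reads.

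The spread between replicates of a stage was wider in members than in steady models. The rule used these same libraries and can favour models in which they are unequal, so nothing is read from this contrast. The median SD of log2 RPKM over the mycelium libraries was 0.32 in members and 0.22 in steady models. Over the fruiting body libraries it was 0.55 and 0.28, and the median range from the lowest to the highest fruiting body library was 1.07 and 0.53. Model 2901476, with its fruiting body replicate 3 far above the others, is part of that spread.

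To see the fall in libraries with no part in the choice, the rule was applied without 1 fruiting body library and the models it chose were read in that library. Without replicate 1 the rule chose 151 models with a median fall of 1.26 on the log2 scale in the libraries used. In replicate 1 their median difference from young fruiting bodies was -0.47, 120 (79.5%) were lower and 37 (24.5%) at least 1 lower, while 45.1% and 2.71% of steady models were. Without replicate 2 it chose 133 models, whose median in replicate 2 was -0.72, with 119 (89.5%) lower and 48 (36.1%) at least 1 lower, against 49.7% and 1.07% of steady models. Replicate 2 is on the flowcell of the young fruiting bodies. Without replicate 3 it chose 101 models, whose median in replicate 3 was -0.54, with 69 (68.3%) lower and 34 (33.7%) at least 1 lower, against 50.9% and 5.77% of steady models. In each left-out library most chosen models were lower, by a smaller median than in the libraries used.

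**Figure D5:**
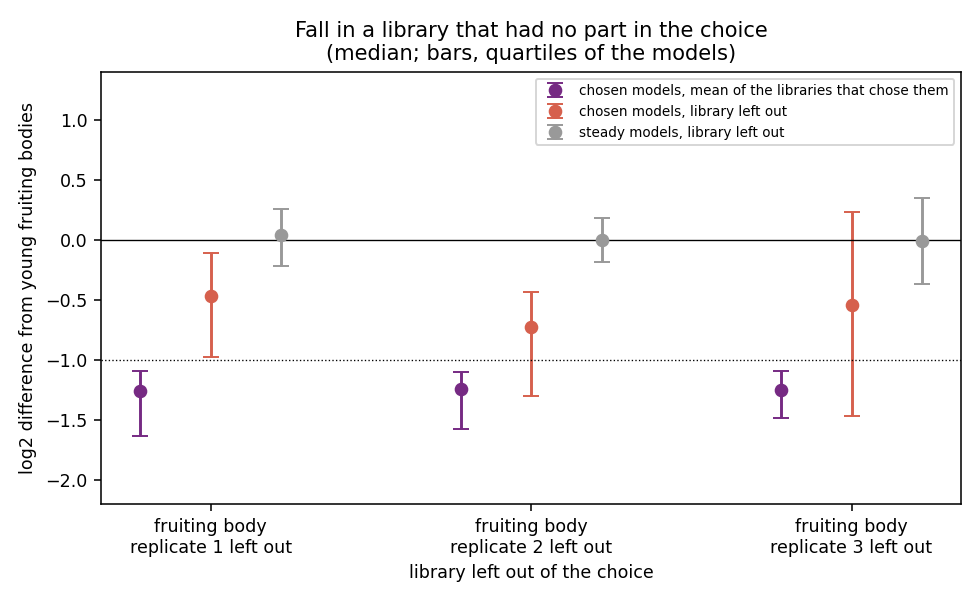
Median log2 difference from young fruiting bodies of models chosen without 1 fruiting body library, in the libraries used (purple) and in the library left out (red), and of all steady models in the library left out (grey); bars span the quartiles of the models. The red medians lie at -0.47, -0.72 and -0.54, between the purple ones of -1.26 to -1.24 and the grey ones near 0, and the dotted line marks the limit of -1.

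Those differences still share the young fruiting body mean with the choice. When 1 young and 1 fruiting body library were left out together, neither library of the difference had a part in the choice. Over the 6 such pairs the rule chose 114 to 242 models. The median difference between the left-out libraries ranged from -0.51, for fruiting body replicate 2 against young fruiting body replicate 2, to 0.40, for fruiting body replicate 3 against young fruiting body replicate 1. From 12.0 to 25.2% of the chosen models were at least 1 lower, against 1.39 to 6.96% of the steady models. Differences in the other direction also occurred. Without young fruiting body replicate 1 and fruiting body replicate 3, 35 of 236 models were at least 1 lower and 69 at least 1 higher, and without young fruiting body replicate 2 and fruiting body replicate 3 the numbers were 27 and 17 of 114. The direction was thus not kept in all pairs: in the pair with fruiting body replicate 3 and young fruiting body replicate 1, 40.3% of the chosen models were lower, and in the other 5 pairs most were. With only young fruiting body replicate 2 as the young stage the rule chose 186 models, and with only replicate 1 it chose 88, of which 51 and 43 were among the 79. The 186 models, read in young fruiting body replicate 1, had a median difference of -0.83 from mycelium, with 41.9% at least 1 lower against 6.16% of steady models, and a median of -0.51 from there to the fruiting body. Of the 186, 156 (83.9%) were below mycelium in that left-out young library, against 47.1% of steady models. The 88 models, read in young fruiting body replicate 2, had medians of -0.39 from mycelium and -0.95 from there to the fruiting body. At least 1 below mycelium were 17.0%, against 3.41% of steady models. From young fruiting body replicates 1 and 2 to the fruiting body, steady models had medians of 0.02 and 0.01. The mycelium mean and the fruiting body median had a part in choosing the 186 and the 88, so these values are not free of the choice.

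Tested across all models, the step from young to spore-releasing fruiting body gave no call in the main edgeR fit of all 8 libraries. Calls were made under DESeq2 and limma-voom, and edgeR with upper-quartile factors called 1 model lower. The main edgeR quasi-likelihood test (adjusted p below 0.05) called 0 of the 79 members lower, against 0.0% of all 12510 models. The smallest adjusted p of a member was 0.0859. In simulated counts this fit recovered 7% of 2-fold and 65% of 4-fold changes, so a lack of calls does not show equal levels. At an unadjusted p below 0.05, 62 members were lower, where 3.69% of all models were, but the rule chose the members on this difference and nothing is read from that share. DESeq2 called 24 members and 102 models lower (0.815%), limma-voom 0 and 1, and limma-trend on the deposited values 0 and 0. Without fruiting body replicate 3, edgeR called 11 members and 36 models lower (0.289%), and without young fruiting body replicate 2 it called 2 members and 2 models, where the lone young library is assumed to vary like the other stages.

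The 11 members called without fruiting body replicate 3 were chosen on the difference that fit tests, and the rule had used replicate 3 for its median, so their values in that library are given as a description. In models 2909539, 3025621, 2934472, 2909300, 2966137, 3024092 and 2984123, replicate 3 differed by -1.31 to -3.22 from the young fruiting body mean on the log2 scale. The other 4, models 2975810, 3023303, 2985406 and 1654722, were less than 1 below or above that mean in replicate 3. Model 2975810, for example, had 9.77, 8.56 and 8.62 RPKM in mycelium, 17.2 and 15.4 in young fruiting bodies and 4.03, 4.50 and 12.5 in fruiting bodies, so replicate 3 lay between the stages. Model 2985406 had 4.03 and 4.21 RPKM in young fruiting bodies and 1.07, 1.59 and 5.77 in fruiting bodies, with replicate 3 above the young stage.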

How the data were processed

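Per the file headers, each library has deposited counts of its unique and total gene reads over 13602 gene models. The authors also deposited a matrix of log2 RPKM for 12746 of them, which equals the log2 of total reads divided by length, apart from 1 constant for each library (99% of values of at least 100 reads within 0.00608). R 3.0.2, limma 3.18.13 and edgeR 3.4.2 are named, with no role, in the submitters' processing notes. For the aligner and the genome build, nothing is given in the sources used here. The library kit, per the labels' protocols, does not mark strand, so antisense overlaps cannot be told apart.

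Members, stages and the differences between them were computed from the matrix, and RPKM in the text is 2 to the power of a deposited value. Members and the rule were chosen with earlier results of these data known. Unique reads were tested with edgeR 4.0.16 in R 4.3.3 (filterByExpr, TMM, robust quasi-likelihood fit of all 8 libraries by stage, Benjamini-Hochberg adjustment over all models tested), with DESeq2 1.42.0 and limma 3.58.1 as alternatives. The fit of fruiting body against young fruiting body was tested on simulated counts with known changes. It recovered 7% of 2-fold and 65% of 4-fold changes, with 3 false among 75 calls. Named models were the largest falls with all fruiting body libraries low, the most abundant, the most abundant per pair of low libraries, those nearest the limit, the lowest against mycelium, those with most shared reads, and the longest and shortest. The models separated 2-fold from all other libraries, and those called without fruiting body replicate 3, were named after their values were seen. A p-value here reflects the spread between deposited libraries, which may be technical. No product lists were described, as the IDs are not paired with names.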

Additional observations from a re-analysis of the deposited data

How the results depend on the processing

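The size of the set depends on its limits. It was 24 models with the highest fruiting body library in place of the median, 26 with a fall of at least 1.5, 48 with a steady band of 0.5, 50 with a young fruiting body level of at least 4 (all on the log2 scale), 175 with no minimum level and 133 with only fruiting body replicates 1 and 3. It was 78 from unique reads, 103 with plain library totals, 68 with a pseudocount of 1, 87 with the mean and 81 with fruiting body replicate 2 alone. Of the 103, 75 were among the 79. Leaving out each library gave 79 to 186 models.

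In fruiting body against young fruiting body, models called lower went from 0 to 102 (DESeq2), 1 (limma-voom), 1 (upper-quartile factors) and 10 (the shared flowcell alone), and to 0 to 36 without each library. Members called went from 0 to 24 and 2 under DESeq2 and the shared flowcell, where the lone fruiting body library is assumed to vary like the other stages, and to 0 to 11 without each library. In fruiting body against mycelium, the flowcell covariate, under which the fruiting body rests on replicate 2, lowered 1681 models to 411 and 38 members to 10. Without each library they were 1022 to 3079 and 25 to 51. The cause of these shifts was not tested. Of 55 counts under other settings, 41 stayed within 1.5 times, a count of 0 only at 0.

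Same-numbered libraries did not deviate together (correlations of -0.28 to 0.20, and 2 of 8 libraries correlated best with their own number). With the replicate block 0 members were called lower against young fruiting bodies, and 34 members of 1589 models against mycelium. Of 252 log2 fold changes of the 18 named models, 6 changed sign. Model 3035980 (-0.40) went to 0.49 with the flowcell covariate and, leaving out each library, to between -1.20 and 0.21. Model 2901476 (0.23) went to -0.36 with limma-voom, -0.66 with the replicate block, -1.01 with the flowcell covariate and, leaving out each library, to between -1.22 (fruiting body replicate 3) and 0.60.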
